A study of Mus musculus with 4 samples.

Results

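Cyclins and cell cycle kinases were examined in differentiating C2C12 cells treated with inhibitors of the histone demethylase LSD1 (Kdm1a). The set comprised 10 genes: the D-type cyclins Ccnd1, Ccnd2 and Ccnd3, the E-type cyclins Ccne1 and Ccne2, the cyclins Ccna2, Ccnb1 and Ccnb2, and the kinases Cdk1 and Cdk2. Each gene was found by its symbol among probe sets annotated to 1 gene only, and the probe set with the highest mean signal over the 4 arrays was taken as its main one. This gave values for 9 of the 10 genes, out of 18193 genes represented on the array. Ccnb1 had no probe set annotated to it alone, the only kind used here, and was not analysed. All 9 passed the filter on dim genes, which kept the 9097 genes whose mean signal was at or above that of the median gene (178.8).

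C2C12 is an established line of mouse myoblasts that stop dividing and fuse into myotubes when serum is lowered. The cells were grown with 25 mM glucose and 10% fetal bovine serum. They were then switched to 2% horse serum and given tranylcypromine (TC, 1 array), S2101 (1 array) or vehicle (2 arrays), and total RNA was taken 48 h later. Tranylcypromine also inhibits monoamine oxidases, and S2101 is described in the labels only as an LSD1 inhibitor. The labels give no dose, so the values of the compounds are placed side by side and the compounds are not compared. The labels do not state whether separate cultures were used for each array. The p-values of the main comparison rest on a variance drawn mostly from all genes tested (2 residual against 8.08 prior degrees of freedom). The residual part is the gap within each pair of arrays. For the inhibitor pair that gap lies between TC and S2101, and for the vehicle pair it is possibly only technical. With so few arrays every estimate is imprecise.

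Cyclins are the regulatory subunits of the cyclin-dependent kinases (CDKs), and their levels rise and fall through the cell cycle. D-type cyclins respond to growth factors and, with Cdk4 and Cdk6, begin the phosphorylation of the retinoblastoma protein in G1, which frees E2F transcription factors. E-type cyclins with Cdk2 drive entry into S phase, Ccna2 acts with Cdk2 in S phase and with Cdk1 in G2, and the B-type cyclins with Cdk1 drive mitosis. Exit of myoblasts from this cycle accompanies their differentiation, and Ccnd3 is known to stay expressed in differentiated muscle cells. Ccne1, Ccne2, Ccna2 and Cdk1 are known E2F targets, while late genes such as Ccnb2 and Cdk1 carry promoter elements called CHR (cell cycle genes homology region) and CCAAT boxes, bound by the MuvB complex and by NF-Y.

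Promoter windows are shown because 2 of the 4 members that were lower with the inhibitors, Cdk1 and Ccnb2, have such a window in the sequence table, and Cdk2 and Ccne1, which did not pass the test, are given beside them. Each window runs from 250 bases before to 50 bases after the annotated start, 5′ to 3′ on the gene's strand, from RefSeq on GRCm38.p6. Capitals mark matches on either strand to the E2F motif (TTTCCCGC, TTTCGCGC, TTTGCCGC or TTTGGCGC), the CHR motif (TTTGAA or TTCGAA) and the NF-Y motif (CCAAT), and 0 bases lay in matches of more than 1 kind.
Cdk1: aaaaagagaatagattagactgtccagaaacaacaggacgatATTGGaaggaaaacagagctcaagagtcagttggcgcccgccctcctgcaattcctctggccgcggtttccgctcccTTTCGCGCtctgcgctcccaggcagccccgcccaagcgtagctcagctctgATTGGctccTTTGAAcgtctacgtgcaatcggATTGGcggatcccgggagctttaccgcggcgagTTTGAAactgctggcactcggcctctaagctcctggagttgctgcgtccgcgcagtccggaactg
Ccnb2: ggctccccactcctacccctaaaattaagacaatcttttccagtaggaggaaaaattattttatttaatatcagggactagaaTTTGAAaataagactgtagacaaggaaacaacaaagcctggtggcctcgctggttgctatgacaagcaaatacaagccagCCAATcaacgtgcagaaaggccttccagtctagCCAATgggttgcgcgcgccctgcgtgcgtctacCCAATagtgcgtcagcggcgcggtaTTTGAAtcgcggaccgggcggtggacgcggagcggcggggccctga
Cdk2: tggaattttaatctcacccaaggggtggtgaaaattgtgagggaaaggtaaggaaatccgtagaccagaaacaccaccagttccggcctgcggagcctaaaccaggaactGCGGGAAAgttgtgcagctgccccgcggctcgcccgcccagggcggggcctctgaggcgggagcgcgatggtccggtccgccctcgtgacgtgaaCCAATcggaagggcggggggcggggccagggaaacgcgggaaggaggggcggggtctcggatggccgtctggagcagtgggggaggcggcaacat
Ccne1: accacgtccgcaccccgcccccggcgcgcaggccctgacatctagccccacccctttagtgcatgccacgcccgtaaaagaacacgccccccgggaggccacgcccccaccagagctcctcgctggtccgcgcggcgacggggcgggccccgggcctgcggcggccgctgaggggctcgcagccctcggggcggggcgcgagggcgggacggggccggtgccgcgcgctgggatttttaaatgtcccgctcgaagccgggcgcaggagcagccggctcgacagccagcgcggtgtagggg
The Cdk1 window lies at chr10:69352863-69353162 on the minus strand, that of Ccnb2 at chr9:70421505-70421804 on the minus strand, that of Cdk2 at chr10:128705002-128705301 on the minus strand and that of Ccne1 at chr7:38107441-38107740 on the minus strand. Windows were listed for 6 of the 10 genes, including Ccnb1, and for Ccnd1, Ccnd2, Ccne2 and Ccna2 none was listed.

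The Cdk1 window held 2 CHR matches, at bases -71 to -66 and -15 to -10 from the start, with 3 NF-Y matches and 1 E2F match (bases -131 to -124). The Ccnb2 window likewise held 2 CHR matches, at bases -167 to -162 and 5 to 10, and 3 NF-Y matches, whose first bases stood at -87, -54 and -21. The Ccnb1 window, of the B-type cyclin not analysed on the arrays, held 2 NF-Y matches, at bases -99 to -95 and -67 to -63. It held 0 CHR matches, unlike the windows of Cdk1 and Ccnb2, and 0 E2F matches, as did the Ccnb2 window. The Cdk2 window held 1 E2F and 1 NF-Y match and 0 CHR matches, and the Ccne1 window held 0 matches of any kind. Ccnd3 has 2 annotated starts, of which the upstream window held 0 matches and the downstream window 1 NF-Y match, at bases -108 to -104. Among all 32851 promoter windows of the same length in the table, 2.26% held an E2F match, 19.2% a CHR match and 37.4% an NF-Y match. Those with at least 2 CHR matches made up 2.54%, those with at least 2 NF-Y matches 11.7%, and those with both a CHR and an NF-Y match 7.52%. A match describes the letters of the window and not a bound site, and a window without a match says only that these letters are not in it.

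**Figure D1:**
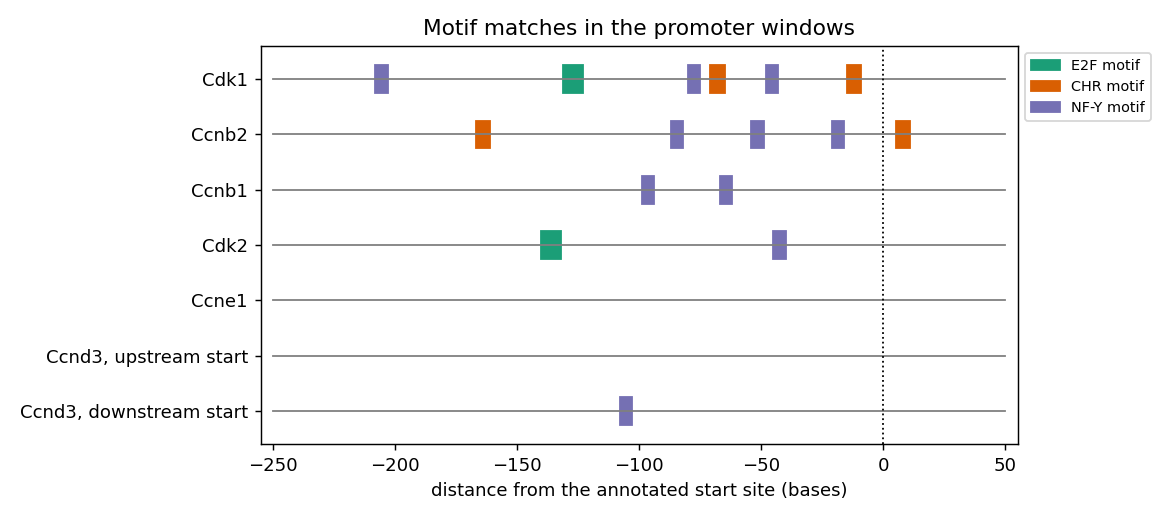
Motif matches in the promoter windows of Cdk1, Ccnb2, Ccnb1, Cdk2, Ccne1 and both starts of Ccnd3. The horizontal axis is the distance in bases from the annotated start (dotted line) and each coloured block is a match to the E2F, CHR or NF-Y motif on either strand. Cdk1 and Ccnb2 hold 2 CHR and 3 NF-Y matches each, and Ccnb1 holds 2 NF-Y matches and 0 CHR matches.

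The comparison asked which of these genes differed between the inhibitor arrays (TC and S2101, 1 array each) and the 2 vehicle arrays. Ccne2, Ccna2, Cdk1 and Ccnb2, which act from the G1/S boundary to mitosis, fell, and the D-type cyclins, Ccne1 and Cdk2 did not pass the test. The 4 genes that fell differed by 0.66 to 1.27 on the log2 scale, and the 5 that did not pass differed by 0.044 to 0.30 in size. Genes that fell made up 3.74% of all genes tested and genes that rose 4.28%, against 4 and 0 of the 9 members (limma, Benjamini-Hochberg adjusted p under 0.05). A lower share of cycling cells and less RNA of these genes per cell cannot be told apart in bulk RNA. The median difference was -0.30 over the 9 members and 0.014 over all genes tested. Differences were taken between log2(signal + 50) values, which understates the change of dim genes.

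Ccne2 encodes cyclin E2, a partner of Cdk2 at the entry into S phase. The TC and S2101 arrays read 203 and 214, against 576 and 573 on the vehicle arrays. Both inhibitor arrays lay far below both vehicle arrays, which were nearly equal. The mean signal with the inhibitors was 36.3% of the vehicle mean, and the log2 difference was -1.27 ± 0.13 (SE; 95% interval -1.55 to -0.99; adjusted p = 0.000355, limma). Ordered from the most negative difference, it ranked 11 among the genes tested. With an offset of 250 in place of 50 the difference was -0.85, and the gene still passed (adjusted p = 0.000331, limma).

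Ccna2 encodes cyclin A2, which acts in S phase and G2. The main probe set read 705 with TC and 704 with S2101, against 1312 and 1307 on the vehicle arrays, so the arrays within each group were almost alike and the groups did not overlap. The log2 difference was -0.85 ± 0.090 (SE; 95% interval -1.05 to -0.65; adjusted p = 0.000481, limma), a mean signal of 53.8% of vehicle. A second probe set of Ccna2 read 632 with TC and 638 with S2101, against 1006 and 1071 with vehicle. It differed by -0.67, in the same direction, but did not pass in the fit over all 34945 probe sets with 1 symbol (adjusted p = 0.0545, limma). In that fit 0.155% of probe sets fell and 0.152% rose, against 2 and 0 of the 22 probe sets of these genes.

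Cdk1 is the kinase that acts with cyclins A and B in G2 and mitosis. The TC array read 1486 and the S2101 array 1247, against 2311 and 2547 on the vehicle arrays. Both inhibitor arrays were below both vehicle arrays, and the array with S2101 was the lowest of the 4. The log2 difference was -0.81 ± 0.10 (SE; 95% interval -1.03 to -0.59; adjusted p = 0.00107, limma), a mean signal of 56.3% of vehicle.

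Ccnb2 encodes cyclin B2, a mitotic partner of Cdk1. Treated cells read 562 (TC) and 579.6 (S2101), against 884 and 981 on the vehicle arrays. The groups did not overlap, and the gap between the vehicle arrays (0.14 on the log2 scale) was smaller than the difference between groups. That difference was -0.66 ± 0.10 (SE; 95% interval -0.89 to -0.43; adjusted p = 0.00361, limma), a mean signal of 61.2% of vehicle. When every probe set was tested on its own with no filter, the calls of Ccnb2 and Cdk1 ended (adjusted p = 0.0670 and 0.0589, limma).

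**Figure D2:**
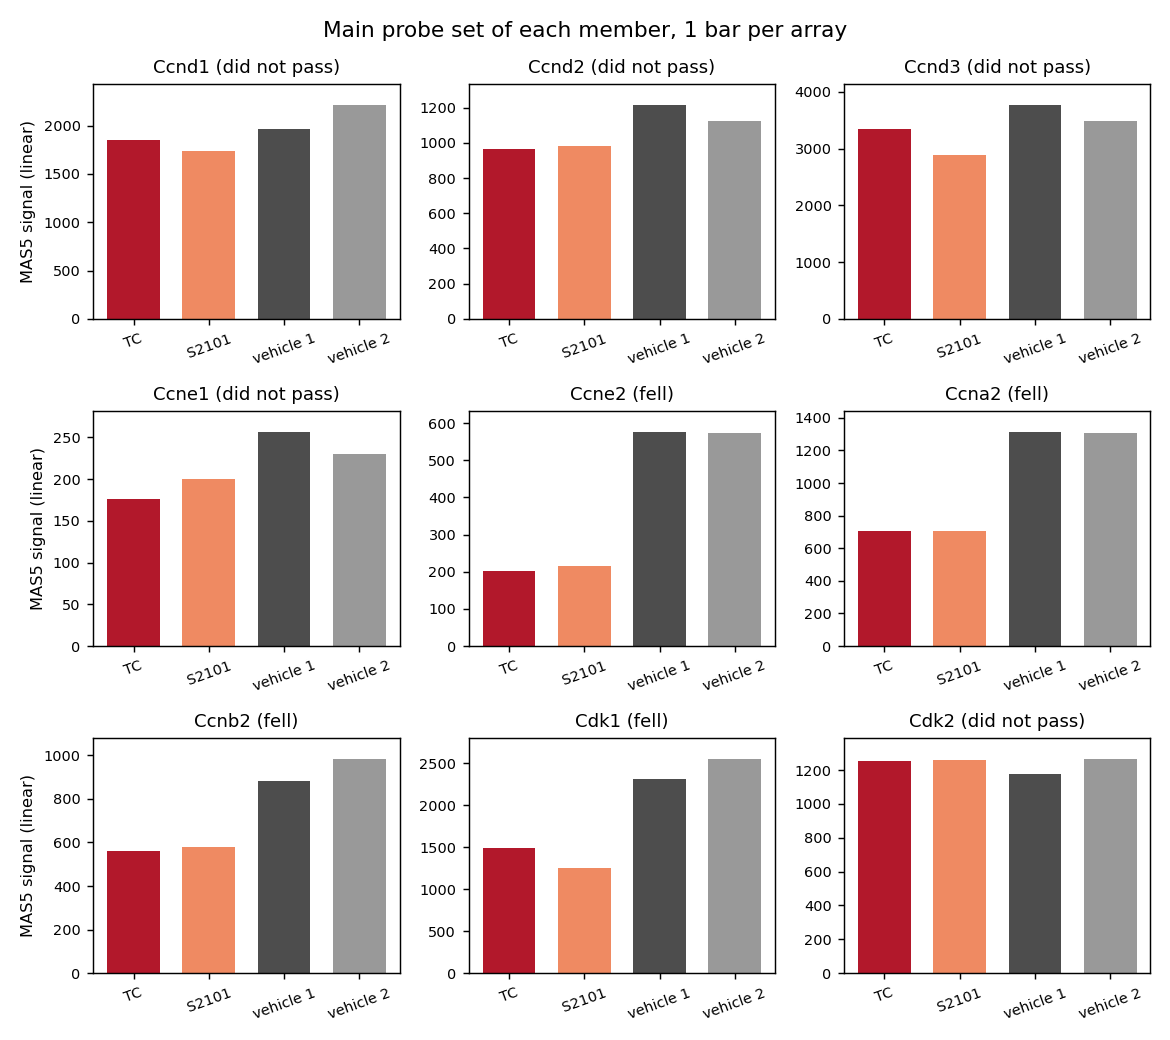
MAS5 signal (linear vertical axis from 0, arbitrary units) of the main probe set of each of the 9 genes, with 1 bar for each array, in the order TC, S2101, vehicle 1 and vehicle 2. Ccne2 stands at 203 and 214 with the inhibitors and at 576 and 573 with vehicle, while the bars of Cdk2 lie between 1175 and 1264.

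The D-type cyclins gave smaller differences. The signal of Ccnd1 was 1853 with TC and 1734 with S2101, against 1967 and 2212 with vehicle. Ccnd2 read 967 with TC and 980.1 with S2101, against 1215 and 1126 with vehicle. Ccnd3 read 3350.1 with TC and 2895 with S2101, against 3767 and 3488 with vehicle. For each of the 3 genes both inhibitor arrays were below both vehicle arrays, as in 23.4% of all genes tested, though for Ccnd1 and Ccnd3 the gap from the nearest inhibitor array to the nearest vehicle array was narrow. The log2 difference was -0.21 ± 0.088 for Ccnd1, -0.25 ± 0.091 for Ccnd2 and -0.22 ± 0.088 for Ccnd3 (SE). None passed (adjusted p = 0.184, 0.128 and 0.178, limma). Their 95% intervals, unadjusted for the number of genes, ran from -0.41 to -0.018, from -0.46 to -0.050 and from -0.41 to -0.021, so a fall as large as that of Ccnb2 lay outside each of them.

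Other probe sets of the D-type cyclins gave a mixed picture. Both other Ccnd1 probe sets had the inhibitor arrays below the vehicle arrays, with differences of -0.27 and -0.28. The dimmer of them read 576 with TC and 565 with S2101, against 854 and 578 with vehicle, so 1 vehicle array was close to the inhibitor arrays. Ccnd2 had 7 probe sets, all with a negative difference between -0.43 and -0.13, and in 5 of them the groups overlapped. Ccnd3 had a probe set that went the other way, at 96.2 with TC and 97.8 with S2101, against 40.8 and 42.5 with vehicle. Its difference was 0.68 ± 0.20 (SE; adjusted p = 0.267, limma), and its mean signal of 69.3 was under the filter. Averaging the 3 Ccnd3 probe sets turned the sign of that gene's difference (0.087; adjusted p = 0.719, limma).

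Ccne1, the other E-type cyclin, had a mean signal of 216, close to the filter. It read 176 with TC and 201 with S2101, against 256 and 230.2 with vehicle. The groups did not overlap, but the difference of -0.30 ± 0.16 (SE; 95% interval -0.65 to 0.050) did not pass (adjusted p = 0.300, limma). A second probe set read 152 with TC and 127 with S2101, against 206 and 245 with vehicle, a difference of -0.54 (adjusted p = 0.334 over all probe sets, limma). With its probe sets averaged, the difference of Ccne1 was -0.42 (adjusted p = 0.0665, limma). The interval of its main probe set did not reach that of Ccne2, and the difference between these paralogues was not tested.

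Cdk2, the kinase partner of the E-type cyclins and Ccna2, had signals of 1256 with TC and 1259.7 with S2101, against 1175 and 1264 with vehicle. The inhibitor arrays lay between the vehicle arrays. The difference was 0.044 ± 0.088 (SE; 95% interval -0.15 to 0.24; adjusted p = 0.826, limma), so falls of the size seen for its cyclin partners Ccne2 and Ccna2 lay outside the interval. The second probe set of Cdk2 had a mean signal of 6.4, too dim to bear on this.

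**Figure D3:**
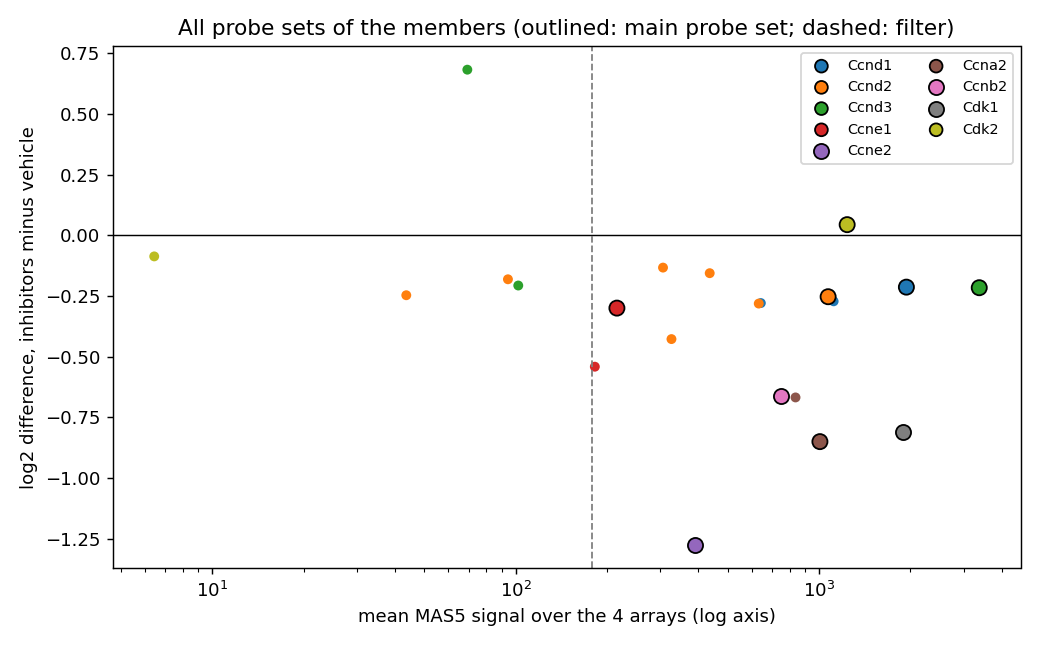
All 22 probe sets of the 9 genes, with the mean signal over the 4 arrays on a log horizontal axis and the log2 difference (inhibitors minus vehicle) on the vertical axis. Main probe sets are outlined and the dashed line is the filter at 178.8. Of the 17 probe sets at or above the filter, 16 have a negative difference. Among all 9097 genes tested, each by its main probe set, 4282 have a negative difference. The highest point is the dim Ccnd3 probe set at 0.68.

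Both inhibitor arrays lay below both vehicle arrays in 8 of the 9 members, against the 23.4% of all genes tested given above. Over all 22 probe sets of these genes, 14 had the inhibitor arrays below the vehicle arrays, 7 overlapped and 1 lay above. The 23.4% covers main probe sets past the filter only. No such share was taken over all probe sets, so the counts over the 22 have no background beside them. Probe sets of 1 gene share their target and are not independent.

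Each compound was also set against the vehicle arrays in a fit with 3 groups, in which the lone arrays are assumed to vary as the vehicle pair does. Both comparisons share the vehicle arrays. With TC, 4 of the 9 members fell and 0 rose, where 3.81% of all genes tested fell and 4.36% rose. With S2101, 4 fell and 0 rose, where 3.33% of all genes fell and 3.37% rose. Ccne2 differed by -1.30 with TC and -1.24 with S2101 (adjusted p = 0.00150 and 0.00210, limma). Ccna2 differed by -0.85 with each compound (adjusted p = 0.00189 with TC and 0.00226 with S2101, limma). For Cdk1 the differences were -0.69 with TC and -0.93 with S2101 (adjusted p = 0.00314 and 0.000738, limma), and for Ccnb2 they were -0.68 and -0.64 (0.0120 and 0.0177). Ccnd3 stood at -0.11 with TC and -0.32 with S2101, and neither passed (adjusted p = 0.464 and 0.0510, limma).

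**Figure D4:**
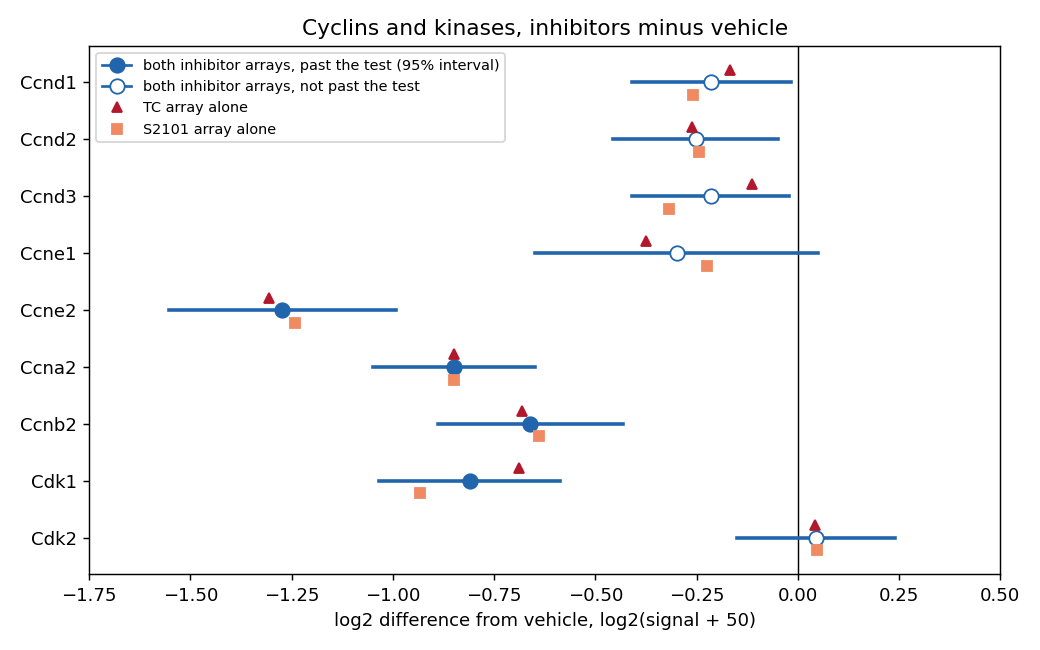
Log2 difference from vehicle (horizontal axis, log2(signal + 50)) of the 9 genes. Circles are the 2 inhibitor arrays against the 2 vehicle arrays with the 95% interval (filled where the adjusted p was under 0.05), triangles the TC array alone and squares the S2101 array alone. The filled circles, at -1.27, -0.85, -0.66 and -0.81, belong to Ccne2, Ccna2, Ccnb2 and Cdk1.

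Of 14 further cell cycle cyclins and kinases, 10 were bright enough to test and 0 passed in either direction (limma), with a median difference of -0.026. With 3.74% and 4.28% of all genes called lower and higher, a count of 0 among so few genes is near the background. Of all 9097 genes tested 2029 had an unadjusted p under 0.05 (limma), and among these 10 only Cdk5, a kinase best known from neurons, did (0.0462). The largest differences were those of Cdk5 (0.22) and of Cdk6 (-0.13), a partner of the D-type cyclins, followed by Cdk14 (-0.12) and Cdk7 (-0.11), part of the kinase that activates other CDKs. Cdk4, named here as the main partner of the D-type cyclins after its values were seen, read 4084 with TC and 3474 with S2101, against 3819 and 4006 with vehicle. Its groups overlapped and it did not pass (difference -0.054; adjusted p = 0.779, limma). Ccna1, Ccnb3, Ccnf and Ccno were too dim to test, and their differences are not read as changes. Of 12 cyclins and kinases of transcription, 11 were tested and 0 passed (limma), with a median of -0.0074, which is again near the background. The Mediator kinase gene Cdk19 (-0.22; unadjusted p = 0.0363) had the largest difference, followed by Ccnl2 (-0.17), Ccnt2 (0.15) and Ccnl1 (-0.14).

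Of 8 tested genes in a list of CDK activators, subunits and inhibitory kinases, 3 fell, 0 rose and 5 missed the threshold, with a median of -0.49. Over all genes tested, 3.74% fell and 4.28% rose. Cks2, a small CDK-binding subunit, read 3029 with TC and 2496 with S2101, against 4163 and 4503 with vehicle, a difference of -0.65 ± 0.096 (SE; adjusted p = 0.00297, limma). Its paralogue Cks1b fell as well (-0.61 ± 0.071; adjusted p = 0.000830, limma), as did the mitotic kinase Aurka (-0.58 ± 0.13; 0.0224). Pkmyt1, the kinase that inhibits Cdk1, stood at -0.57 ± 0.17 and did not pass (0.0765, limma). The others that did not pass, named after their values were seen, were the mitotic kinase Plk1 (-0.42; adjusted p = 0.0870, limma), the Cdk1-inhibiting kinase Wee1 (-0.081) and the CDK-activating phosphatases Cdc25a (0.035) and Cdc25b (-0.079), and for both phosphatases the groups overlapped. Of 7 CDK inhibitor proteins 5 were tested and 0 passed, at a median of 0.045, which is near the background for so few genes. None had an unadjusted p under 0.05 (limma), against 2029 of all 9097 genes tested. Cdkn1a, encoding p21, read 15443 with TC and 14442 with S2101, against 14594 and 13033 with vehicle (difference 0.11; adjusted p = 0.409, limma), and its groups overlapped. Cdkn2d (-0.15), Cdkn2c (-0.11) and Cdkn1c (0.079) had the other largest differences.

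Of 10 genes of the ubiquitin ligases that destroy cyclins and their regulators, 3 fell, 0 rose and 7 missed the threshold, at a median of -0.26. Among all genes tested the shares that fell and rose were 3.74% and 4.28%. Cdc20, which directs the anaphase-promoting complex to B-type cyclins, read 1608 with TC and 1443 with S2101, against 2751 and 2755 with vehicle, a difference of -0.83 ± 0.083 (SE; adjusted p = 0.000365, limma). The complex's inhibitor Fbxo5 (-0.66 ± 0.15; adjusted p = 0.0223, limma) and its ubiquitin-conjugating enzyme Ube2c (-0.52 ± 0.096; 0.00888) fell too. Skp2, which targets the CDK inhibitor p27, stood at -0.35 and did not pass (0.0531, limma).

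Of 17 tested transcription regulators, the Rb, E2F, DREAM and B-Myb group with Myc added, 2 fell, 1 rose and 14 missed the threshold, at a median of -0.094. The shares over all genes tested were 3.74% lower and 4.28% higher. E2f7, a repressor of the E2F family, read 267 with TC and 236 with S2101, against 447 and 506 with vehicle, a difference of -0.80 ± 0.13 (SE; adjusted p = 0.00512, limma). Myc, a growth-promoting transcription factor, read 378 with TC and 397 with S2101, against 653 and 630.0 with vehicle, a difference of -0.66 ± 0.11 (adjusted p = 0.00526, limma). E2f2, an activator of the family, went the other way, at 1269 with TC and 1206 with S2101, against 849 and 764 with vehicle (0.59 ± 0.096; adjusted p = 0.00450, limma). The Rb relative Rbl1 stood at -0.43 and did not pass (0.0598, limma).

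**Figure D5:**
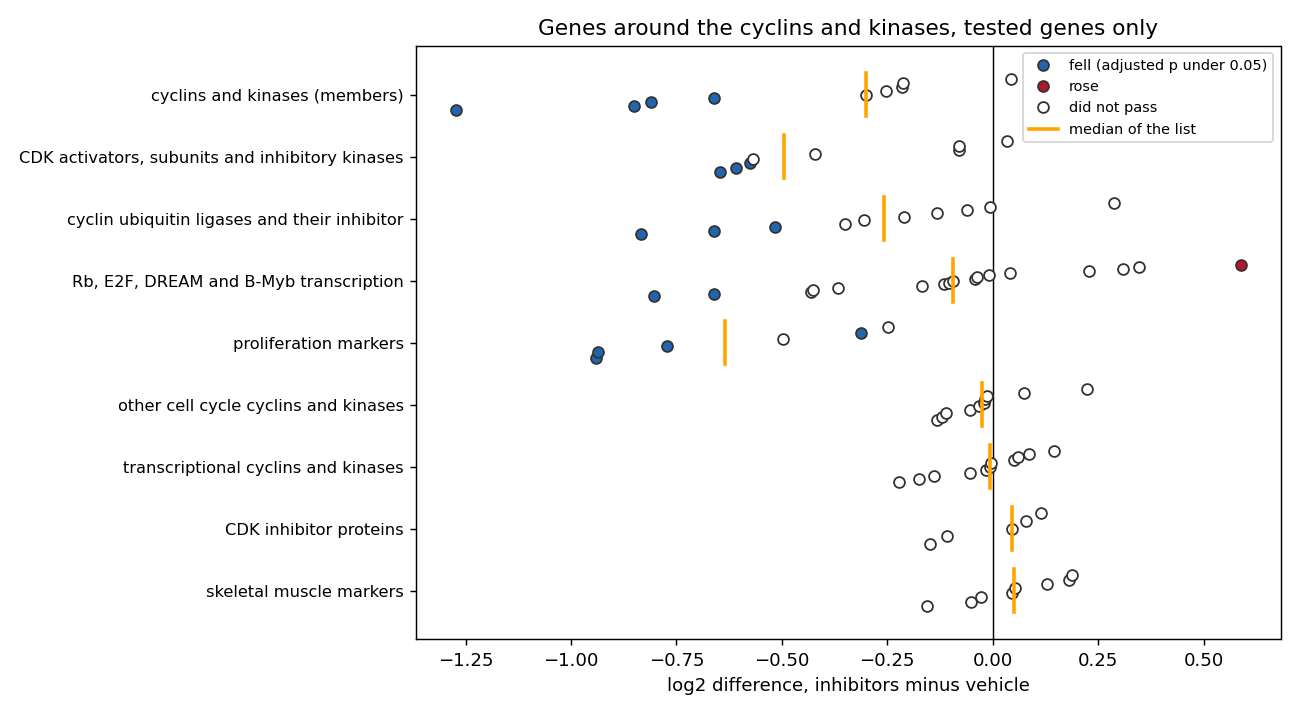
Log2 difference (inhibitors minus vehicle, horizontal axis) of each tested gene in the lists around the cyclins and kinases. Each point is 1 gene, filled blue where it fell and red where it rose past the test, and the orange bar is the median of the list. The members' median is -0.30 and those of the other cyclin and kinase lists are -0.026 and -0.0074.

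The general state of the cultures was read from marker lists. Over all genes tested 3.74% fell and 4.28% rose, while of 6 proliferation markers 4 fell and 0 rose, with a median of -0.63. Those that fell were Mki67 (-0.94), Top2a (-0.93), Tk1 (-0.77) and Pcna (-0.31), and Mcm2 (-0.50) and Rrm2 (-0.25) did not pass (adjusted p = 0.0579 and 0.0514, limma). All 8 skeletal muscle markers were tested and 0 passed in either direction (limma), with differences from -0.16 to 0.19. For so few genes a count of 0 is near the background. An unadjusted p under 0.05 (limma) was found for 2 of these 8 and for 2029 of all 9097 genes tested. The summed signal of the 8 markers was 94300 with TC and 85413 with S2101, against 87487 and 87128 with vehicle. The groups thus overlapped, and the cells carried the markers of their labelled type in every array. All 4 measured markers each of adipocytes, osteoblasts, endothelium and neurons were under the filter, as were 3 of 4 leukocyte markers, with Ptprc at 0.66 to 16.4. The leukocyte marker above the filter, Cd14, read 354 with TC and 438 with S2101, against 338 and 409 with vehicle. It did not pass (adjusted p = 0.828, limma). Summed signals of these lists overlapped between the groups except for the osteoblast markers, at 255 with TC and 290.3 with S2101, against 400.4 and 412 with vehicle. Within that list Dmp1, a bone matrix gene, read 134 with TC and 105 with S2101, against 212 and 228 with vehicle, and the part of these markers in the results was not tested. As a sign of RNA integrity, the 3′ over 5′ Gapdh ratio was 0.790 with TC and 0.743 with S2101, against 0.782 and 0.770 with vehicle, and its part in the results was not tested.

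The genes nearest to 3 members over the 4 arrays were named by the Euclidean distance between their centred log2 values. For Ccne2 these were Igf1 (distance 0.047), Spc24 (0.080) and Ptgs2 (0.13), for Cdk1 Hells (0.032), Mcm3 (0.037) and Gins1 (0.050), and for Ccnd1 Polr1b (0.023), Camkk2 (0.025) and Rpl7l1 (0.042). Igf1 read 635 with TC and 691 with S2101, against 1631 and 1659 with vehicle, and Hells 324 and 267 against 541 and 587. With 4 arrays, of which 2 are controls, such likeness is a description only.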

How the data were processed

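Total RNA of 4 samples was hybridised to Affymetrix arrays as biotinylated cRNA made from 250 ng, per the labels' protocols. The authors deposited a linear MAS5 intensity for each probe set. The submitters' processing notes name MAS5 and Affymetrix Expression Console, with no version or setting. Each array's 2% trimmed mean was 500.0, and median signals were 63.4 to 75.1. Of 45101 probe sets, 34945 carried 1 symbol, 932 several and 9160 none listed, and 64 were array controls. Signals on the log2 scale correlated at r = 0.990 between the vehicle arrays and at 0.987 to 0.988 between an inhibitor and a vehicle array. The vehicle arrays shared 1 identical value and were counted as separate samples.

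Signals were turned into log2(signal + 50) with no further normalization. A linear model with an intensity trend in the variance (limma 3.58.1, R 4.3.3) was fitted over all 9097 genes, and p-values were Benjamini-Hochberg adjusted over all of them at 0.05. The main comparison set both inhibitor arrays against both vehicle arrays (2 residual degrees of freedom, prior 8.08), and a fit with 3 groups gave each compound (1 residual, prior 8.37). Pooling TC and S2101 was a choice made here. The fit was tested on simulated data. Named genes were all members, the 4 largest differences of each list other than the marker lists, and the 3 nearest genes of Ccnd1, Ccne2 and Cdk1. Marker genes and other genes given by name were chosen after their values were seen. The members and lists were chosen with earlier results of these data known. No genome was used, and promoters and names came from RefSeq tables (GRCm38.p6). Alternatives were other offsets (10 and 250), filters, probe set rules, normalizations and variance priors, and leaving out each array.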

Additional observations from a re-analysis of the deposited data

How the results depend on the processing

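The 4 members kept their calls under both other offsets, with no filter on dim genes, with averaged probe sets, under quantile normalization and median centring, without an intensity trend and without any 1 array. With the filter at the 75th percentile the count was 2, Ccna2 and Cdk1, because Ccne2 and Ccnb2 were then too dim to be tested. Tested as single probe sets, Ccne2 and Ccna2 passed and Ccnb2 and Cdk1 did not. Leaving out 1 array at a time, the difference of Ccne2 ran from -1.30 to -1.24, that of Ccna2 stayed at -0.85, that of Cdk1 from -0.93 to -0.69 and that of Ccnb2 from -0.73 to -0.59. Cdk2 changed sign with averaged probe sets (-0.021) and without vehicle replicate 1 (-0.0064), with a range of -0.0064 to 0.094 when 1 array was left out, and Ccnd3 changed sign with averaged probe sets (0.087). None of Ccnd1, Ccnd2, Ccnd3, Ccne1 and Cdk2 passed under any alternative. The count over all genes, 729, was 266 with no filter, 457 with the filter at the 75th percentile, 468 with averaged probe sets, 107 over single probe sets and 423 without an intensity trend. It was 501 to 749 without 1 array. The cause of these shifts was not tested. The 2 arrays per group limit all of these values.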

Other observations

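Several regulators of the same genes were under the filter and have values but no test. These were named after their values were seen. Mybl2, encoding B-Myb, read 39.0 with TC and 39.5 with S2101, against 78.8 and 67.0 with vehicle, and both inhibitor arrays were lower. Foxm1, a transcription factor of the G2/M genes, read 125 with TC and 145 with S2101, against 84.9 and 121 with vehicle, and both inhibitor arrays were higher. Ccnf, a cyclin that serves a ubiquitin ligase, read 93.9 with TC and 131 with S2101, against 142 and 136 with vehicle. Ccnb3, a B-type cyclin, read 17.2 with TC and 6.2 with S2101, against 23.1 and 23.4 with vehicle. Bora, a cofactor of Aurka, read 112 with TC and 106 with S2101, against 150.3 and 169 with vehicle. Cdc25c, a phosphatase that activates Cdk1, read 105 with TC and 133 with S2101, against 110.0 and 141 with vehicle, and its groups overlapped. No difference among these dim signals was tested, so none is read as a change.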
